A study of Mus musculus with 5 samples.

Results

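The genes described here encode the proteins of the cytosolic ribosome. They were chosen by name, as every row whose whole symbol was Rpl or Rps, digits and at most one of the letters a, x or y, together with Rplp0, Rplp1, Rplp2 and Rpsa, and symbols with -ps were left out. This gave 76 of the 17638 genes in the table, 46 of the large (60S) and 30 of the small (40S) subunit. Rps3a1 and Fau also encode ribosomal proteins but fall outside the rule, so they are given beside the members and not among them.

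Polyadenylated RNA was sequenced from cells of the mouse heart labelled CD31+ and endothelial, taken 5 days after myocardial infarction. There were 3 libraries from controls and 2 from Tbx1cko, a conditional deletion of the T-box transcription factor gene Tbx1 that the series calls endothelial. All mice were 2 months old, of C57BL/6 background, and all had an infarct, so nothing here compares injured with uninjured tissue. The labels name no Cre driver, deleted exon, control allele or number of animals per library. Each p-value therefore reflects the spread among these 5 libraries alone, which may be technical.

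The deposited values are read counts divided by a size factor of the library, called normalised counts below. The recovered reads came to between 14689782 and 18617284 per library. Tbx1 had 64.4, 72.7 and 69.6 normalised counts in the 3 controls, in the order of their replicate numbers as for all values below, and 18.3 and 17.3 in the 2 Tbx1cko libraries, with no overlap between the groups (log2 difference -1.89, SE 0.30, limma adjusted p = 0.762). The 12 endothelial markers all had reads, Pecam1 (CD31) at 33715 to 43313, and summed to 215932 to 314779 in controls and 196631 to 210424 in Tbx1cko. Markers of other cells were present too. Summed over each list, the leukocyte markers lay at 41986 to 70539 in controls and 68231 to 75312 in Tbx1cko, the mural markers at 47108 to 59716 and 38242 to 40553, and the platelet markers at 1397 to 2416 and 3258 to 3721. No listed marker was at 0 in every library, and the part of these cells in the values below was not tested. Control replicate 2 lay far from all other libraries in most comparisons of libraries, so results are given with and without it.

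A ribosome joins a small subunit, which holds the mRNA and reads its codons, to a large subunit, which forms the peptide bonds and releases the chain through an exit tunnel. Nearly every ribosomal protein is present as a single copy in each ribosome, the acidic stalk proteins P1 and P2 being the known exception, and cells make the proteins in matched amounts. Their mRNAs are short, abundant and begin with a tract of pyrimidines, the 5′ terminal oligopyrimidine (TOP) motif, through which mTORC1 and LARP1 control their translation. That control acts on translation, which mRNA counts do not measure.

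Runs of pyrimidines stood in most of the promoter windows found for these genes. RefSeq promoter windows of GRCm38.p6, from 250 bases before to 50 after a gene's start, were found for 56 of 76 members, in 66 windows. The shares below are of windows, not of genes. Windows of the same gene can overlap and hold the same run, as for Rps24. An unbroken run of at least 8 C or T on the gene's strand, within 50 bases of the start, stood in 81.8% of the member windows and in 35.7% of all 32851 windows. The letters CTTTCC, which can lie inside such a run, stood in 31.8% and 4.69% of windows over the same stretch. The letters CGGAAG, searched on both strands over all 300 bases, stood in 62.1% and 16.9%, and in 27.1% of the windows of genes in the table. A match is a description of these letters, not of a bound factor. The 30-base stretches of GRCm38.p6 below, 5′ to 3′ with the run in capitals, were picked from windows that hold one and belong to 3 members that were low in control replicate 2 (Rps24, Rpl39 and Rps15a) and 3 that were high there (Rpl28, Rps16 and Rps12).
Rps24, chr14:24490710-24490739, plus strand: gagcggTCCTCTTTTCCTCCTCTCCagctc
Rpl39, chrX:37085173-37085202, minus strand: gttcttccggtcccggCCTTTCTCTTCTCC
Rps15a, chr7:118116143-118116172, minus strand: gcccggcccaCTCTCTTTCTgccatcttcc
Rpl28, chr7:4792952-4792981, plus strand: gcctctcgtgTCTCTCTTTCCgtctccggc
Rps16, chr7:28350631-28350660, plus strand: caattcacacgTCCCCTCTCaggcttcgac
Rps12, chr10:23787182-23787211, minus strand: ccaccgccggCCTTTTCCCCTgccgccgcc

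Together the members took 3.19%, 3.62% and 2.71% of all normalised counts in controls and 3.02% and 2.92% in Tbx1cko. Both Tbx1cko values lay between the lowest and the highest control. The control mean of 3.18% ± 0.456 (SD, n = 3) stood against 2.97% ± 0.0697 (SD, n = 2) in Tbx1cko, a difference of -0.21 percentage points that was 0.0148 without control replicate 2 and -0.44 without control replicate 3. In bulk RNA, fewer cells of a type and less RNA per cell cannot be told apart. The large subunit took 1.64% to 2.20% and the small subunit 1.07% to 1.43% of the counts of a library. Control replicate 2 was the highest and control replicate 3 the lowest for each subunit.

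Per kb of transcript, the members spanned a wide range of levels, and the lowest 4 stood far below the rest. The length used is that of the shortest complete protein-coding transcript of the gene in GENCODE M21 (GRCm38). Transcripts that GENCODE tags as basic, and then those with an APPRIS tag, were taken first where there were any. The median member had 8269 normalised counts per kb as a mean over the 5 libraries, with an interquartile range of 6042 to 11177. The highest was Rplp1, a stalk protein that helps to recruit translation factors, at 21693 per kb, followed by Rpl13 at 19722, Rps12 at 18956 and Rplp0, the base of the stalk, at 18269. The spread over libraries was wider than the steps between these neighbours, Rplp1 running from 15440 to 31353 and Rplp0 from 15248 to 23808, so their order is not resolved.

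**Figure D1:**
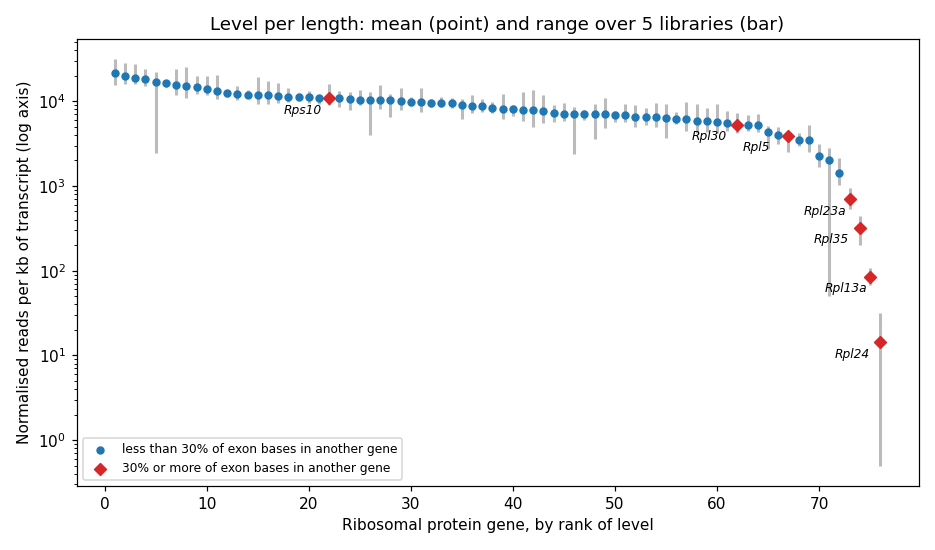
Normalised counts per kb of transcript (log axis) for all 76 ribosomal protein genes, ranked by the mean over 5 libraries (point), with the lowest to highest library as a bar. Red diamonds mark the 7 members with at least 30% of their exon bases inside another annotated gene. Rpl23a, Rpl35, Rpl13a and Rpl24 lie below all the others, and the bar of Rpl24 is clipped because control replicate 2 held 0.

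Rpl24, a protein at the interface of the subunits, had 15.8, 0 and 1.88 normalised counts in controls and 9.15 and 21.4 in Tbx1cko. Its mean over the libraries missed the minimum of 10, so 75 members were tested. Rpl13a, known also for a role in silencing inflammatory mRNAs, had 90.4, 70.8 and 111 in controls and 82.3 and 83.6 in Tbx1cko. Rpl35 had 190 to 418 and Rpl23a 297 to 524 over the 5 libraries, and both proteins sit by the exit tunnel. Per kb these genes stood at a mean of 14.3 (Rpl24), 83.7 (Rpl13a), 323 (Rpl35) and 697 (Rpl23a).

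These 4 genes share a feature of position. In GENCODE M21, 71.5% of the exon bases of Rpl24 (chromosome 16, 55966275 to 55971435, plus strand) lie in exons of Gm28037 on the same strand, and 59.3% of those of Rpl13a (chromosome 7, 45125558 to 45128761, minus strand) in exons of Gm45713. For Rpl35 (chromosome 2, 39001580 to 39005624, minus strand), 68.3% lie in exons of Wdr38 on the opposite strand, and for Rpl23a (chromosome 11, 78180932 to 78183584, minus strand), 55.4% in exons of Tlcd1, also opposite. Only 3 other members had an overlap of at least 30%, a limit chosen after the values were seen. They were Rpl30 (34.7%) and Rpl5 (46.6%), at rank 62 and 67 of 76 in level per kb, and Rps10 (91.6%), at rank 22. Outside the rule, Fau, a ubiquitin-like fusion with a small-subunit protein, had no overlap and 4464 to 8656 normalised counts. The labels and processing notes name neither the read counter nor its strand setting, and the part of these overlaps in the low counts was not tested. The 69 members without such an overlap spanned a 15.4-fold range, from 1411 per kb for Rps20, whose transcript used here is long at 3706 bases, to Rplp1.

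The members also share sequence with other loci. Of all 50-base windows of a member's transcript, a median of 43.5% occurred in no other annotated gene, and for 18 members it was under 20%. A median of 9.5 other genes held at least one window of a member. Rps27, a zinc-finger protein of the small subunit, had 1.35% unique windows and shared 98.6% of them with Rps27rt, and it had 3226 to 4082 normalised counts. Rps27rt itself had 31.1 to 91.5. How reads with several matches were counted is not stated in the labels, so counts of members with near-identical copies are uncertain. The 74 rows with -ps symbols took 0.0065% to 0.0119% of a library in sum, the highest being Rps6-ps4 at a mean of 108. Some copies under other names had far more. Gm10076, a lincRNA gene that shares 53.1% of the windows of Rpl41, had 1826 to 3041 normalised counts, and Gm10736, with 7.47% of the windows of Rpl41, had 652 to 1148. Gm8730, a processed pseudogene with 27.3% of the windows of Rplp0, had 2237 in control replicate 1 and 52.0 to 85.5 in the other 4 libraries. The part of these copies in the counts of Rpl41 and Rplp0 was not tested.

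The comparison of genotypes asked whether deletion of Tbx1 went with a change of these mRNAs in CD31+ cells after infarction. No member passed the test. In limma on log2(normalised count + 1), fitted over 14339 genes, 0 of 75 members had an adjusted p under 0.05, against 0% of all genes, and the members' adjusted p-values ran from 0.762 to 0.99. At an unadjusted p under 0.05 there were also 0 members, where 1.37% of all genes were lower and 0.37% higher. On the recovered reads edgeR called 0 of 75 members (0% of genes) and DESeq2 called 0 of 75 (0.0279% of genes). At an unadjusted p under 0.05 both gave 0 members, beside 1.58% of genes lower and 0.398% higher in edgeR and 1.92% and 0.439% in DESeq2. The groups did not overlap for 1 member lower in Tbx1cko and 6 higher (Rps6, Rps24, Rps27, Rpl10, Rpl21 and Rpl36a), against 13.9% and 14.2% of genes, so both counts are under the background.

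Most members had a log2 difference (Tbx1cko minus control) a little below 0, and this rested on control replicate 2. With all libraries the difference was below 0 for 57 of 75 members, or 76%, beside 47.6% of all genes, and the median was -0.16, beside 0.0277 for all genes. Without control replicate 2 it was below 0 for 36 of 76 members, beside 46.6% of genes, and the median was 0.0027. In that fit 0 of 76 members passed, against 0.0209% of genes in limma and, in DESeq2 on the recovered reads, 0 members against 0.537%. Control replicate 3, the lowest library for 44 of 76 members, moved the median the other way. Left out, it gave -0.35, with 0 of 76 members called (0% of genes) and 8 lower at an unadjusted p under 0.05 (2.14% of genes lower, 1.13% higher).

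**Figure D2:**
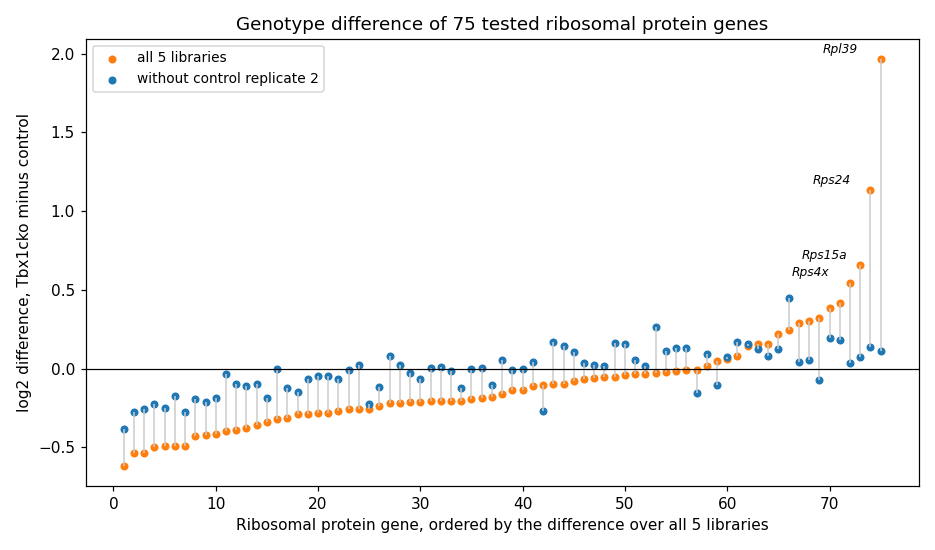
Log2 difference, Tbx1cko minus control, of the 75 tested ribosomal protein genes, ordered by the value over all 5 libraries (orange) and joined to the value without control replicate 2 (blue). Rpl39, Rps24, Rps15a and Rps4x, the highest over all libraries, move to 0.04 to 0.14, and most members on the left move up towards 0.

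The precision of the comparison changed with the same library. The 95% interval of a member's log2 difference, from limma's SE, had a median half-width of 0.70 with all libraries and 0.32 without control replicate 2. It lay wholly between -1 and 1, which is less than a 2-fold change either way, for 45 of 75 members with all libraries and for 75 of 76 without that library. The exception was Rpl24, which rests on few reads. The fit without control replicate 2 held 2 control and 2 Tbx1cko libraries, at 11.16 moderated degrees of freedom beside 5.45 with all. Its 2 controls lay on opposite sides. Of 75 members, 20 and 15 were higher in Tbx1cko replicates 1 and 2 than in control replicate 1. Against control replicate 3, 72 and 60 were higher. The members shifted together between libraries, so their intervals are not independent results. Without control replicate 2, 67 of 76 members had a log2 difference within 0.25 of 0. The interquartile range in that fit was -0.11 to 0.10 for the members, beside -0.14 to 0.16 for all genes.

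Among the members below 0, those with the smallest unadjusted p were high in control replicates 1 and 2. Rps16 had 7008, 10151 and 4970 in controls and 4695 and 5085 in Tbx1cko, and Rpl28 had 6663, 9879 and 4700 against 4836 and 4519. In both of these control replicate 3 lay within the Tbx1cko values, while control replicates 1 and 2 lay above. The log2 differences of Rps16 and Rpl28 were -0.53 (SE 0.33, limma adjusted p = 0.762) and -0.53 (SE 0.34, limma adjusted p = 0.762), and -0.27 and -0.26 without control replicate 2. Rpl29 and Rpl10a, also named by the smallest p, showed the same order, with log2 differences of -0.42 and -0.34 that were -0.21 and -0.19 without control replicate 2.

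On the higher side, the differences of Rpl39, Rps24, Rps15a and Rps4x came mainly from one low control. Those of Rpl21 and Rpl36a, also named, were smaller without that library but did not vanish. Rpl39, a very small protein that lines the exit tunnel (chromosome X, 37082520 to 37085402, minus strand), had 1714, 30.4 and 1275 normalised counts in controls and 1565 and 1631 in Tbx1cko. Control replicate 2 was 52.6-fold below the median of the other 4 libraries, and those 4 overlapped between the groups. The log2 difference of 1.97 (SE 1.79, limma adjusted p = 0.762) became 0.11 (SE 0.15, limma adjusted p = 0.91) without it.

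Rps24, a small-subunit protein mutated in some cases of Diamond-Blackfan anaemia (chromosome 14, 24487125 to 24496959, plus strand), had 9460, 1143 and 8824 in controls and 10317 and 9772 in Tbx1cko. It was 8.41-fold lower in control replicate 2 than the median of the other 4 libraries. Its log2 difference of 1.14 (SE 0.97) was 0.14 (SE 0.13, limma adjusted p = 0.86) without that library. Rps24-ps3, a pseudogene row that shares 50.1% of the 50-base windows of Rps24, had 33.9, 2.8 and 44.2 in controls and 44.8 and 39.7 in Tbx1cko, low in the same library.

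Rps15a had 5454, 1537 and 4883 in controls and 5379 and 5479 in Tbx1cko, and Rps4x, the X-linked form of a small-subunit protein, had 12404, 3935 and 10415 against 11022 and 12331. In both, the 4 other libraries lay close together with the groups overlapping. Rpl21 had 8180, 5557 and 8408 against 9519 and 9443, and Rpl36a 2197, 1320 and 2103 against 2437 and 2434. For these 2 genes the groups did not overlap with or without control replicate 2, and the log2 differences of 0.39 and 0.41 were 0.19 (SE 0.12) and 0.18 (SE 0.12) without it, at limma adjusted p-values of 0.789 and 0.79.

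**Figure D3:**
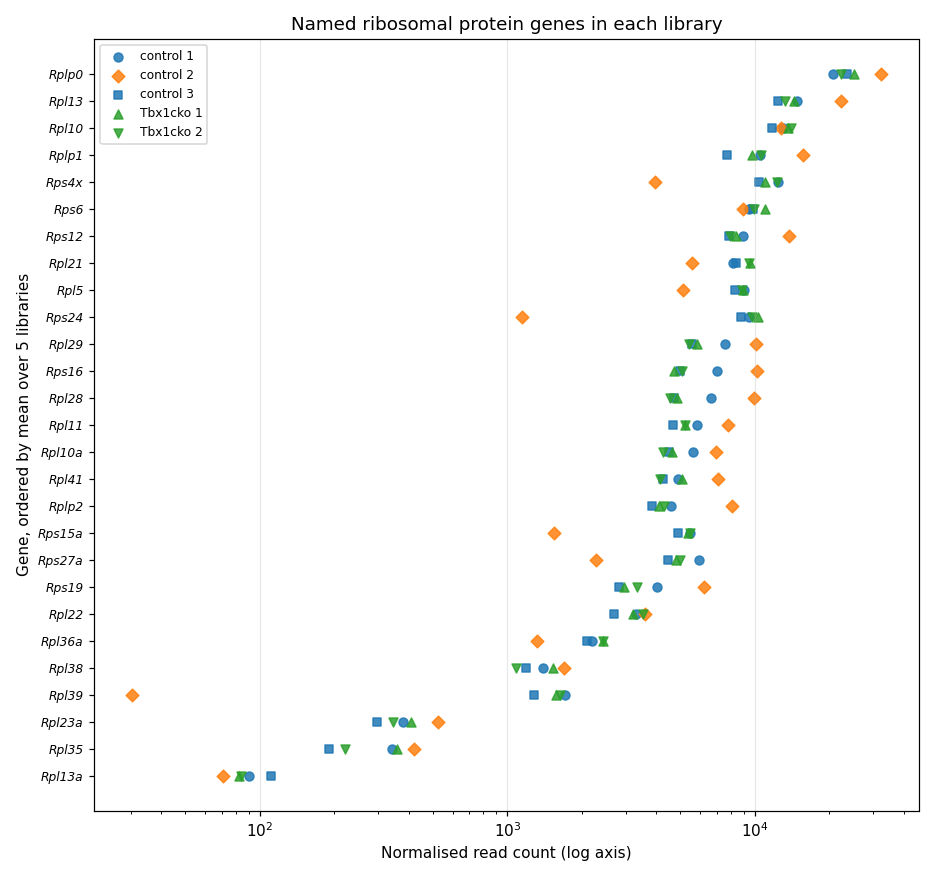
Normalised counts (log axis) of named ribosomal protein genes in each of the 5 libraries, control replicate 2 as orange diamonds, the other controls in blue and Tbx1cko in green. Control replicate 2 lies at an end of nearly every gene, most to the left for Rpl39, Rps24, Rps15a, Rps4x and Rps27a, and to the right for most of the rest.

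The balance between members differed in control replicate 2. It was the highest library for 57 of 75 members (41.1% of all genes) and the lowest for 15 (41.5% of all genes). It lay over 2-fold below the median of the other 4 libraries for 5 members, which were Rpl39, Rps24, Rps15a, Rps4x and Rps27a, against 23.7% of genes, and over 2-fold above it for 6, against 6.92%. Among the other 4 libraries the members kept nearly the same order. Spearman's rho over the 75 members was 0.955 to 0.991 between these libraries and 0.752 to 0.81 between them and control replicate 2, as a description of libraries that share their genes. No member differed by over 2-fold in any of the 6 pairs without control replicate 2, and 5 to 19 members did in the 4 pairs with it.

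The deviation of control replicate 2 moved with the GC content of the transcripts. Over the 75 members Spearman's rho was 0.559, and over the 13771 tested genes with a GC value it was 0.799, in both cases across genes of 1 library. The 25 members of lowest GC content (41.3% to 50%) had a median deviation of -0.02 on the log2 scale, with 13 below 0, and the 25 of highest GC content (54% to 60.8%) had 0.76, with 1 below 0. The 5 members that were over 2-fold low had GC contents of 46.4% to 48.7%. Of the 11 other members in that range, 8 lay above the median of the other libraries in control replicate 2 and 3 below it, from -0.81 on the log2 scale for Rpl36a to 0.91 for Rpl37. With all libraries the genotype difference had a rho of -0.509 with GC content over the members, and -0.227 without control replicate 2. With a GC correction of the values the members' median genotype difference was -0.09.

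**Figure D4:**
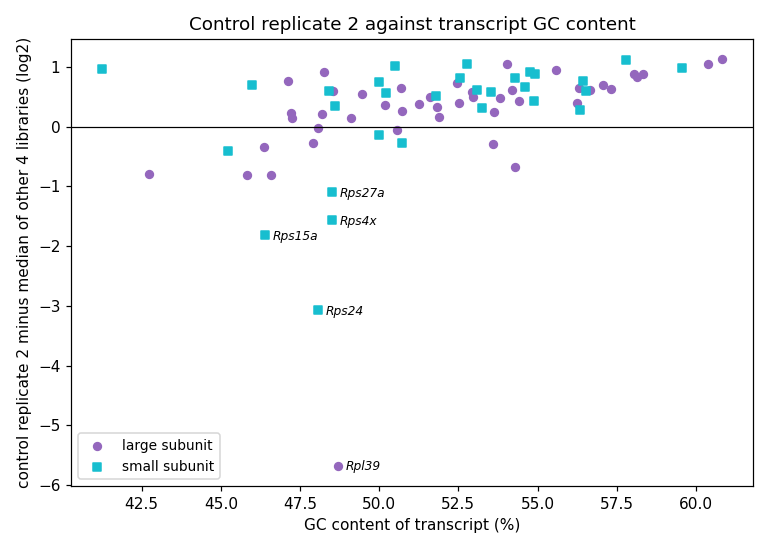
Log2 deviation of control replicate 2 from the median of the other 4 libraries (vertical axis) against the GC content of the transcript in percent (horizontal axis), for 75 ribosomal protein genes by subunit. Most points rise with GC content, and Rpl39, Rps24, Rps15a, Rps4x and Rps27a are the lowest points, between 46.4% and 48.7%. Rpl39 and Rps24 lie farthest down, and Rps27a lies nearest to the rest.

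By role, the members were close to 0 in each group once control replicate 2 was left out. The stalk proteins differed by -0.08 for Rplp0, -0.10 for Rplp1 and -0.32 for Rplp2 on the log2 scale, and by 0.10, 0.17 and -0.0039 without control replicate 2. Rplp0 had 20707, 32331 and 23492 normalised counts in controls and 25217 and 22299 in Tbx1cko, with the Tbx1cko libraries among the controls. Rpl5 and Rpl11, which carry the 5S RNA into the large subunit and can bind MDM2 when assembly fails, differed by 0.29 and -0.19, and by 0.0395 and 0.0004 without that library. Rpl5 had 9039, 5131 and 8281 against 8917 and 8867. The 7 proteins of the tunnel rim had a median of -0.06, and the 5 that hold or decode the mRNA -0.22, which became 0.11 and -0.07.

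Rps6, the substrate of S6 kinase, had one of the smallest spreads over libraries among the named members, an SD of 0.11 on the log2 scale. It had 9428, 8978 and 9795 normalised counts in controls and 11027 and 9955 in Tbx1cko. The Tbx1cko libraries were the highest, with a log2 difference of 0.16 (SE 0.16, limma adjusted p = 0.762) and 0.12 (SE 0.13, limma adjusted p = 0.876) without control replicate 2, where the 95% interval ran from -0.16 to 0.41. Rps27a, made as a fusion with ubiquitin, had 5933, 2287 and 4453 against 4804 and 4986, and its sign turned from 0.32 to -0.07 without control replicate 2. Rpl22, known for a role in T cell development, had 3306, 3607 and 2706 against 3207 and 3527, and the groups overlapped.

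Rpl38, linked to the translation of Hox mRNAs in the embryo, had 1397, 1692 and 1187 against 1530 and 1080, and Rpl41, the smallest member of the ribosome, 4908, 7099 and 4244 against 5052 and 4144. Without control replicate 2 they differed by -0.0018 and 0.0036 on the log2 scale. Rps19, the gene most often mutated in Diamond-Blackfan anaemia, had 4012, 6204 and 2836 against 2965 and 3343, a log2 difference of -0.39 and of -0.10 without that library. The 19 members linked to that anaemia had a median of -0.18 and of 0.0004. The 4 X-linked members, Rps4x, Rpl10, Rpl36a and Rpl39, were all above 0, at a median of 0.48 and of 0.13 without control replicate 2. Rpl10 had 13028, 12701 and 11718 against 13562 and 14011, and its difference of 0.14 was 0.16 without that library. Of these 4, Rps4x and Rpl39 were also over 2-fold low in control replicate 2.

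Without control replicate 2, Rpl34 had the smallest p of the members and was named for that after its values were seen. It had 3811, 6189 and 4268 normalised counts in controls and 5306 and 5720 in Tbx1cko, so control replicate 2 was the highest library of the 5. The log2 difference was 0.24 (SE 0.26, limma adjusted p = 0.762) with all libraries and 0.45 (SE 0.12, limma adjusted p = 0.339) without it. It was the only member with an unadjusted p under 0.05 in that fit, against 3.39% of genes higher and 4.02% lower. In DESeq2 without that library Rpl34 was higher and 1 other member lower at an unadjusted p under 0.05, beside 1.88% and 3.24% of genes.

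Paralogs and ribosomal proteins outside the rule gave no call. Rpl22l1, the paralog of Rpl22, had 255, 92.9 and 215 normalised counts in controls and 287 and 257 in Tbx1cko. Rpl39l had 0 to 7.13 and Rpl3l, the heart and muscle paralog of Rpl3, 27.3 to 150, with its highest value in control replicate 2. The cardiomyocyte markers were also highest in control replicate 2, at 12559 in sum against 5993 to 8379 in the other libraries, and their part in the count of Rpl3l was not tested. Rps27l, a target of p53, had 581 to 822, and Rpl36al and Rpl7l1 had 940 to 1044 and 1051 to 1386. Rps3a1, a small-subunit protein outside the rule, had 10922, 4126 and 8838 against 9446 and 9875, low in control replicate 2 like Rps4x. None of the 9 tested genes of this list passed (limma, smallest adjusted p = 0.762).

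Genes that make and use ribosomes showed no called change either. Of 15 genes of RNA polymerase I transcription, 47 of rRNA processing, 21 translation factors and related genes with TOP mRNAs, 25 of the mTORC1, LARP1 and MYC group and 10 of the p53 arm, 0 passed in limma, and 1, Mycn, was lower at an unadjusted p under 0.05, beside 1.37% of all genes lower and 0.37% higher. Without control replicate 2 again 0 passed, and Mycn and Myc were lower and Ccng1 higher at an unadjusted p under 0.05, beside 4.02% of genes lower and 3.39% higher. The medians were 0.09, 0.10, 0.19, -0.03 and 0.29 on the log2 scale, and 0.05, 0.04, 0.08, 0.03 and 0.01 without control replicate 2. Mycn, a MYC-family transcription factor, had 489, 601 and 368 normalised counts in controls and 287 and 263 in Tbx1cko. Its groups did not overlap, with a log2 difference of -0.79 (limma adjusted p = 0.762) and of -0.62 (limma adjusted p = 0.36) without control replicate 2. Myc, which drives ribosome synthesis, had 3380, 2489 and 2430 against 2012 and 2182, again without overlap, at -0.38 and -0.45. In the mTORC1, LARP1 and MYC group, 6 of 25 genes were lower and 2 higher without overlap, beside 13.9% and 14.2% of all genes. In the p53 arm 3 of 10 were lower and 3 higher. Ccng1, a target of p53, had 1460, 316 and 1518 against 1890 and 1798, with a log2 difference of 0.31 (SE 0.12, limma adjusted p = 0.575) without control replicate 2. Taf1d, a subunit of the polymerase I selectivity factor, had 521, 1.84 and 715 against 833 and 685, also far lower in control replicate 2 than in the other libraries.

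Translation factors and related genes whose mRNAs also carry TOP tracts lay lower in control replicate 2. Their median deviation in that library was -0.27 on the log2 scale, against 0.51 for the members, a difference that has no test here. Btf3, part of the nascent chain complex, had 2435, 1358 and 2751 normalised counts in controls and 3140 and 2941 in Tbx1cko, Naca had 4643, 3297 and 5208 against 5960 and 5289, and Hnrnpa1 had 7025, 4310 and 8016 against 8516 and 8496. These 3 genes were named for the smallest p of their list, and in each the Tbx1cko libraries were the highest of the 5. Of the 21 genes of the list, 6 were higher and 0 lower without overlap between the groups, beside 14.2% and 13.9% of all genes. The log2 differences of the 3 genes without control replicate 2 were 0.23, 0.19 and 0.18, with 0 called.

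The mitochondrial ribosome, a separate set of 76 proteins by name, and 80 tested subunits of oxidative phosphorylation were set beside the members as other short housekeeping mRNAs. Their median log2 differences were 0.05 and -0.09 with all libraries, and 0.15 and 0.06 without control replicate 2. In that fit 59 of 76 mitochondrial ribosomal genes lay above 0, against 40 of 76 members and 7658 of all 14347 genes. No gene of either set passed with all libraries or without control replicate 2 in limma. The difference between these sets and the members was not tested.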

How the data were processed

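The 5 libraries were grouped by their titles. Per the submitters' processing notes, reads belong to build GRCm38 (mm10), and DESeq, DESeq2 1.20.0, R 3.5.1 and STAR 2.5.2b were used, in roles that are not described. The authors deposited one normalised signal for each gene and library. In all 5 libraries 100% of these values became whole reads, within 0.01 of a read, when multiplied by one size factor. Per the labels' protocols, RNA was extracted with TRIzol LS and mRNA libraries came from a TruSeq kit. The members and gene lists were chosen with earlier results of these data known.

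Genes with a mean of at least 10 were tested with limma 3.58.1 (R 4.3.3) on log2(normalised count + 1), genotype as the only term, trended prior, 2-sided, Benjamini-Hochberg adjustment over 14339 genes. A fold change on this scale understates the change of low genes. edgeR 4.0.16 and DESeq2 1.42.0 were run on the recovered reads as alternatives. Lengths, GC content, positions, exon overlaps and 50-base windows came from GENCODE M21 by symbol, promoters from RefSeq. The limma script was tested on simulated counts. The 95% intervals use limma's SE and moderated degrees of freedom. Named by rule were up to 6 members per direction by smallest p, the 4 highest and 4 lowest per kb, the 3 with the largest spread over libraries, any called member and a fixed set. In other lists up to 3 genes with the smallest p and all paralogs were named. The rule left the choice of transcript open. The shortest complete protein-coding one, with the basic and APPRIS tags where present, was taken after levels from the longest had been seen. Rps10, Rps20, Rps27, Rpl30, Rpl34, Rpl37, Ccng1, Gm8730, Gm10076 and Gm10736 fall outside the rule and were named after their values were seen. Some genes that the rule names are not reported here. Alternatives were other pseudocounts, filters, scalings, a GC and a length correction, a replicate block and each library left out.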

Additional observations from a re-analysis of the deposited data

How the results depend on the processing

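The count of ribosomal protein genes called stayed at 0 in each direction in all alternatives run. Few genes of any kind were called. There were 0 in the main fit, 4 in DESeq2, 3 with a replicate block and 77 in DESeq2 without control replicate 2. Tbx1 itself was not called in the main fit, so a count of 0 had little room to change and is weak evidence of stability. The members' median log2 difference, -0.16 with all libraries, moved by less than the SD of the library medians within groups (0.24). It ran from -0.35 to 0.0027 with each library left out, was -0.09 after GC correction, -0.26 after length correction and -0.11 after quantile normalisation. With a replicate block it was -0.35, and -0.22 with the block and GC correction. The titles do not state whether equal replicate numbers mark pairs. The correlation of deviations from the group means was -0.06 for replicate 1 and -0.05 for replicate 2. It cannot decide this, because the deviations of 2 Tbx1cko libraries from their own mean mirror each other. The block called 0 members. The difference in the share of counts was -0.70 percentage points when counts per kb were used, a change of scale in which members weigh more. Leaving out a Tbx1cko library assumes that the remaining one varies like the controls. Among the 29 named genes tested, none of them called, 40 of 232 values changed sign in fits without a library and 20 of 348 under other settings. The causes were not tested.

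With each library left out, the log2 difference ranged from -0.37 to 0.0004 for Rpl11, -0.40 to 0.0241 for Rpl13, -0.27 to 0.051 for Rpl13a, -0.0381 to 0.17 for Rpl22, -0.25 to 0.16 for Rpl23a, -0.44 to 0.25 for Rpl35, -0.38 to 0.12 for Rpl38, -0.37 to 0.0036 for Rpl41, -0.22 to 0.10 for Rplp0, -0.34 to 0.17 for Rplp1 and -0.0705 to 0.62 for Rps27a. GC correction turned the sign of Rpl13 (0.0638), Rpl13a (0.0392), Rpl22 (-0.17), Rpl35 (0.17), Rpl38 (0.12), Rpl41 (0.0425), Rpl5 (-0.39), Rplp0 (0.0366) and Rplp1 (0.19). Quantile normalisation turned Rplp0 (0.12) and Rplp1 (0.0511). The replicate block turned Rpl13a (0.051) and Rpl22 (-0.0381). The block with GC correction turned Rpl13 (0.0023), Rpl13a (0.26), Rpl22 (-0.41), Rpl38 (0.10), Rpl5 (-0.63), Rplp0 (0.0468) and Rplp1 (0.0691). Leaving out control replicate 2 with GC correction turned Rpl11 (0.0258), Rpl13 (0.11), Rpl23a (0.13), Rpl35 (0.22), Rpl38 (0.0671), Rpl41 (0.0734), Rpl5 (-0.0603), Rplp0 (0.13), Rplp1 (0.26), Rplp2 (0.0556), Rps19 (0.0326) and Rps27a (-0.10). In DESeq2 without that library the turned values were those of Rpl13 (0.0061), Rpl23a (0.14), Rpl35 (0.11), Rpl38 (0.0021), Rplp0 (0.0923), Rplp1 (0.14) and Rps27a (-0.0995). In edgeR they were those of Rpl13 (0.0048), Rpl23a (0.14), Rpl35 (0.12), Rpl38 (0.0011), Rplp0 (0.0906), Rplp1 (0.14) and Rps27a (-0.10).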
